A study of Mus musculus with 9 samples.

Results

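The translation initiation and elongation factors of mouse macrophages were described across 3 lines that carried GFP, wild-type TTP or a TTP that cannot be phosphorylated by MK2. Members were the genes on chromosomes 1 to 19 that the comparison table of TTP-AA with TTP lists and whose symbol begins with Eif and a digit or with Eef1 or Eef2, apart from the Eif2ak kinases. Of 13205 listed genes, 53 were members, of which 52 code for proteins and 1, Eif4a-ps4, is a pseudogene. The symbol pattern alone found 60 genes, from which 4 Eif2ak kinases and 3 genes on the sex chromosomes were left out. A further 9 genes of the pattern had library values but were not listed, among them Eef1a2, at 2.64 to 4.35, and Eif4e1b, at 1.23 to 1.52 scaled counts.

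Eukaryotic translation starts when eIF4E, within the eIF4F complex, holds the mRNA cap and eIF2 brings the initiator tRNA to a small ribosomal subunit carrying eIF1, eIF1A, eIF3 and eIF5, which then scans for the start codon. Elongation is driven by eEF1A, which brings each aminoacyl-tRNA, by eEF2, which moves the ribosome along, and by eIF5A, which helps difficult peptide bonds form. In macrophages stimulated with lipopolysaccharide (LPS), these factors serve the synthesis of cytokines, and TTP, the product of Zfp36, binds AU-rich elements in the 3′UTRs of many of the mRNAs concerned, lowering their stability and translation.

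All 3 groups were made from Zfp36-deficient bone marrow-derived macrophages of 6-week-old mice, immortalized with the oncogenes hcmyc and hRasG12V and sorted for CD11b and F4/80. One doxycycline-inducible retroviral vector supplied GFP alone (GFP), GFP fused to TTP (TTP) or GFP fused to the mutant in which the MK2 target serines are alanine (TTP-AA), each from the coding sequence without the 3′UTR. Every library came from cells given doxycycline for 6 h and LPS for 1 h, both at 1 µg/ml, so that untreated cells and cells with endogenous TTP formed no group. Each group had 3 libraries of rRNA-depleted total RNA, numbered as replicates 1 to 3, and since a construct was carried by its own transduced line, effects of the construct and other differences between the lines cannot be told apart.

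The deposited library values were not the observed read counts but the means that the authors' model fitted to them. None of the 25494 genes had a value of 0, and the log2 matrix, centred by gene and by library, had a rank of only 4, whereas 9 libraries measured separately would bring it to 8. Such values are a library factor times a replicate-number term times a group term, so libraries of one group differ only by the replicate-number term, which all 3 groups share, and the difference between groups is the same in each same-numbered pair (to within 0.008 log2). They hold no scatter, so no test of a difference could be made, and all differences below are descriptions. The sums of the library values ran from 21482954 to 102613526, a 4.78-fold range. Values were divided by a library factor (the median ratio to the geometric mean over all listed genes) and are called scaled counts. A difference is that of the group means of log2 scaled counts, and a gene counts as past the fold where it is at least 0.5 in size (1.41-fold) and the 3 libraries of one group all lie outside those of the other. Because the replicate-number term is shared, groups fail to overlap where the difference exceeds the gene's range over the replicate numbers. That range cancels from the difference, so it describes overlap and is not the error of a difference.

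Zfp36 lay at 1742, 1422 and 889 scaled counts in GFP, at 1784, 1445 and 912 in TTP and at 2824, 2295 and 1441 in TTP-AA. The gene did not set the libraries labelled TTP apart from those labelled GFP (0.03 log2). TTP-AA was 0.66 log2 above TTP, but its libraries overlapped with those of both other groups across replicate numbers. Every direction below therefore rests on the labels as given. All 7 macrophage markers sought were listed, and 2 of them differed past the fold. Emr1, which codes for F4/80, averaged 16706 in GFP, 9877 in TTP and 26800 in TTP-AA, and the Fc receptor gene Fcgr1 averaged 661, 285 and 505. The 7 markers summed to 553108 to 770552 in GFP, 455112 to 627859 in TTP and 631686 to 874745 in TTP-AA. Most of each sum was the lysozyme gene Lyz2, which averaged 590388 in GFP, 481556 in TTP and 666645 in TTP-AA. None of 4 B cell, 5 fibroblast and 4 epithelial markers was listed, and those with library values did not exceed 7.92 scaled counts. Of 5 T cell markers 1 was listed, Lck, which lay at 55.4 to 96.7 and was past the fold above GFP in TTP and TTP-AA. Of 5 neutrophil markers 1 was listed, S100a8, which lay at 112 to 307 and was past the fold higher in TTP-AA. The part of these line differences in the values below was not tested, and in bulk libraries fewer cells of a type and less RNA per cell cannot be told apart.

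Abundance among the members spanned a 5070-fold range per kilobase of transcript. The length was that of a single annotated transcript per gene, preferring those with a 3′UTR and then the longest coding sequence. Levels and ranks per kilobase depend on that choice. Per kilobase, Eef1a1 stood highest at 145369 scaled counts (mean over groups), followed by Eef2 at 41301, Eef1b2 at 31188, Eif5a at 26791, Eef1g at 25833 and the helicase gene Eif4a1 at 21383. The 4 highest were thus 3 elongation factors and eIF5A. Of the 52 protein-coding members, 10 exceeded 10000 and 11 were under 1000 per kilobase, around a median of 3144. The lowest were Eif5a2 at 28.7, Eif4ebp2 at 77.8 and Eef2k at 80.4. Together the members held 2.61 to 2.81% of the summed scaled counts of all listed genes in GFP, 2.67 to 2.87% in TTP and 2.49 to 2.67% in TTP-AA, ranges that overlap between every pair of groups. The 9 genes of the eEF1, eEF2 and eIF5A groups held 53.3 to 61.9% of the members' sum in any library.

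**Figure D1:**
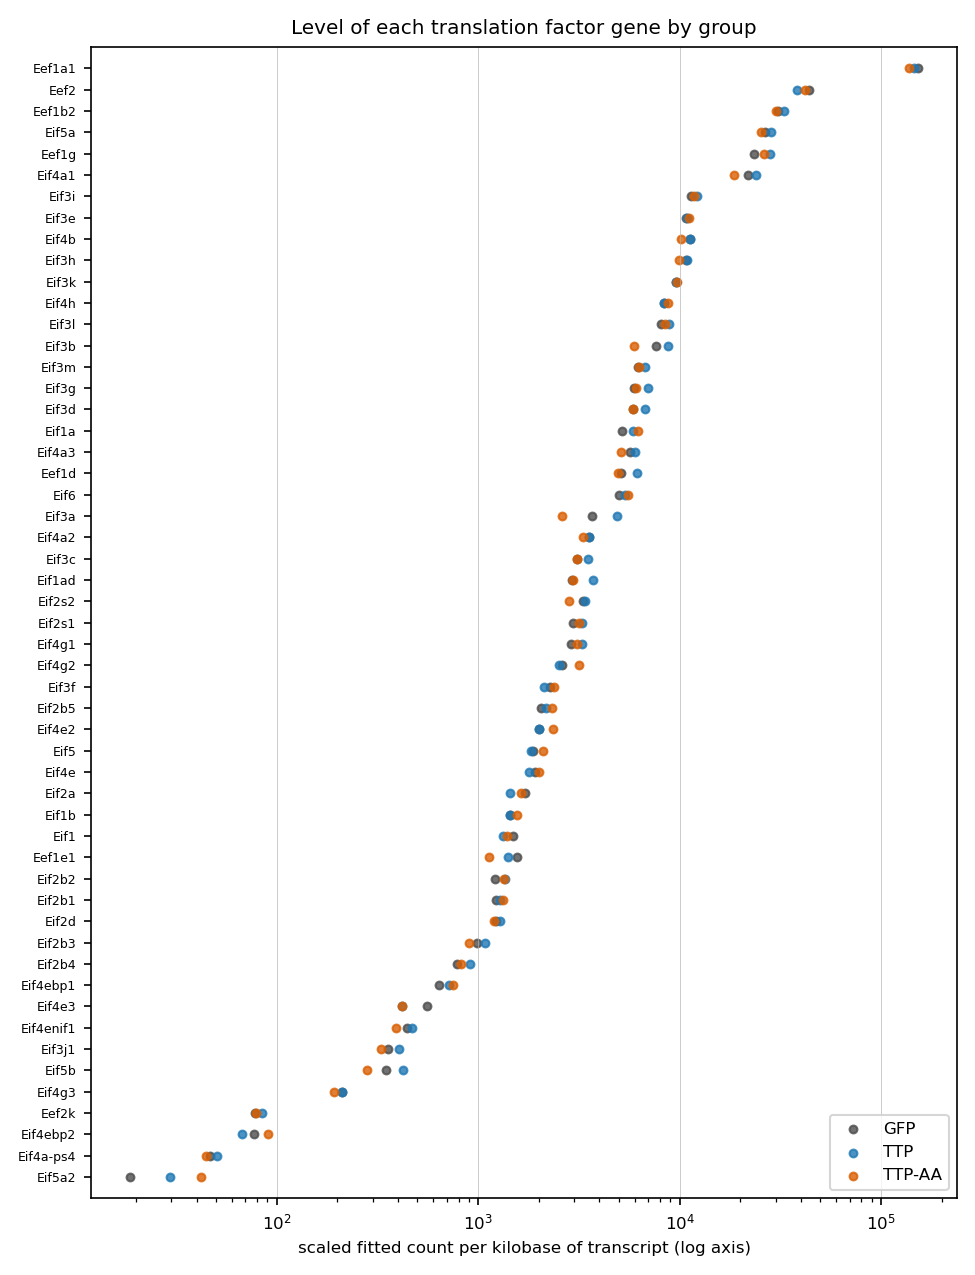
Scaled fitted count per kilobase of transcript (log axis) of the 53 members, ordered by their mean, with 1 point for each of the groups GFP, TTP and TTP-AA. Eef1a1 stands at the top and Eif5a2 at the bottom, and for most members the group points lie close together beside the range between genes.

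As a set, the members lay close to the median of all listed genes in each comparison. In TTP against GFP their median difference was 0.10 log2, beside 0.00 over all listed genes, with 38 members higher and 15 lower. In TTP-AA against GFP the median was 0.01, with 27 higher and 26 lower. In TTP-AA against TTP it was -0.09, with 19 higher and 34 lower, beside 6600 higher and 6605 lower over all listed genes. The 3 comparisons share libraries and are not independent of each other. Directions are relative to the median of all listed genes. Least-squares scaling to the authors' mean raised that median by 0.42 log2 in TTP-AA against GFP and by 0.38 in TTP-AA against TTP. With it the members' medians became 0.44 and 0.30, so that small negative differences of TTP-AA turn positive on that scale. Those of the eIF3 and eEF1 groups are included, with few exceptions. These are Eif3a in both comparisons, Eif3b in TTP-AA against TTP and Eef1e1 in TTP-AA against GFP.

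Members with large differences were scarcer than in the table as a whole. A difference of at least 0.3 log2 was found for 4 members (7.55%) in TTP against GFP, beside 14.5% of all listed genes. The shares were 11.3% against 23.3% in TTP-AA against GFP and 18.9% against 31.0% in TTP-AA against TTP. No set test was made of these shares, and the listed genes were not matched to the members by level. The lowest authors' mean count was 60.0 among the members and 8.98 among all listed genes. The part of that difference in level in the lower shares was not tested. The cumulative plot shows the shift to the right in TTP against GFP and the shorter upper tail of the members in TTP-AA against TTP.

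**Figure D2:**
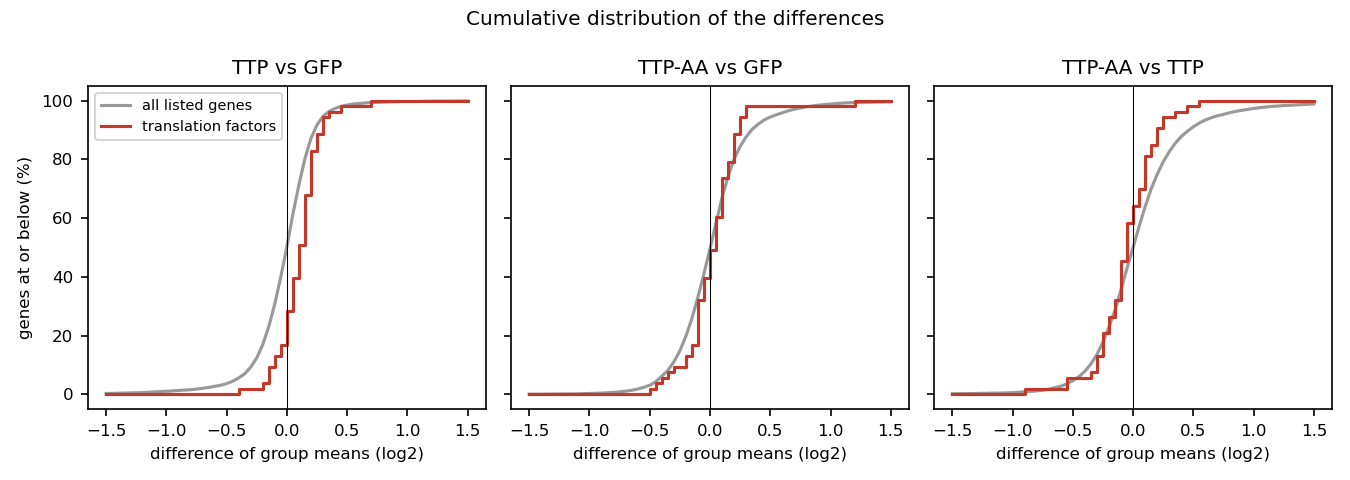
Percent of genes with a difference of group means at or below the value on the x axis (log2), for the 53 members (red) and all 13205 listed genes (grey), in each comparison. The members' curve lies to the right of the grey one in TTP vs GFP, where their median is 0.10, and to its left over most of its course in TTP-AA vs TTP, where it is -0.09.

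Only 2 members were past the fold in any comparison, Eif5a2 and Eif3a. In TTP against GFP, Eif5a2 alone was higher, 1.89% of members beside 1.32% of listed genes, and no member was lower, beside 3.03%. In TTP-AA against GFP, Eif5a2 was higher (1.89% beside 4.09%) and Eif3a was lower (1.89% beside 2.58%). In TTP-AA against TTP, Eif5a2 was again higher (1.89% beside 7.03%) and Eif3a again lower (1.89% beside 3.98%). By size alone, 1, 2 and 4 members differed by at least 0.5 log2 in these comparisons (1.89, 3.77 and 7.55%, beside 5.17, 8.69 and 13.6% of listed genes). The further 2 in TTP-AA against TTP were Eif3b and Eif5b, which differed by that much in each same-numbered pair but whose libraries overlapped across replicate numbers. Under either criterion the members' shares lay near or below the background of all listed genes, which was not matched by level.

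**Figure D3:**
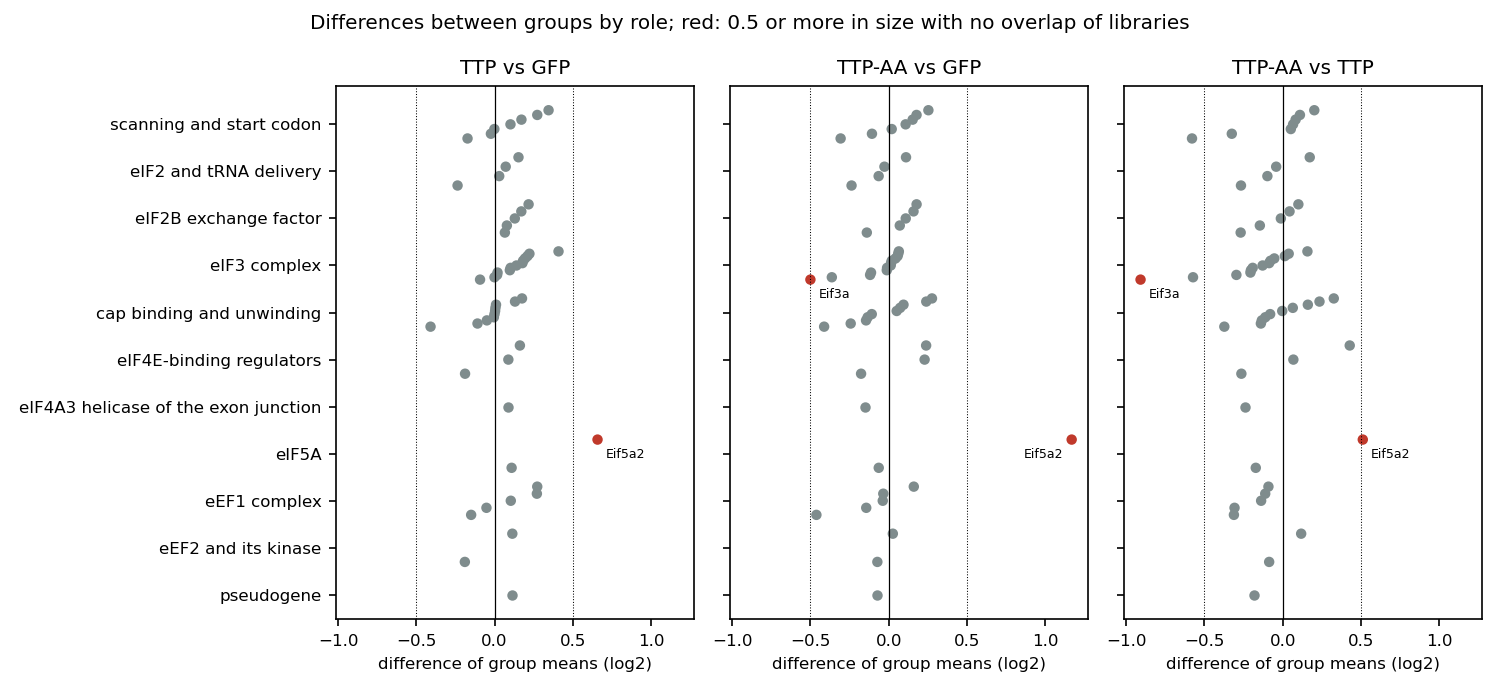
Difference of group means (log2) of each member, 1 point per gene, grouped by role, in each of the comparisons, with dotted lines at -0.5 and 0.5. Red points are past the fold, namely Eif5a2 on the right in all 3 panels and Eif3a on the left in the comparisons that involve TTP-AA.

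The sequences below are 3′UTR sites of the core AU-rich motif TATTTAT, the letters that TTP is known to favour, in some of the members that carry it. They include members that were level between groups. Eif3b, Eif5b, Eif4e3 and Eif1ad, also described below, have no such site in the 3′UTR searched. Capitals mark the motif, and 11 bases are shown on either side, 5′ to 3′ along the transcript (GRCm38, with the strand of the gene).
Eif5a2, chr3:28794905-28794933, plus strand: aaacgaaactcTATTTATcaaacagtgtc
Eif3a, chr19:60761335-60761363, minus strand: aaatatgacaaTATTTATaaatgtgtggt
Eef1e1, first site, chr13:38645794-38645822, minus strand: tttctcttagaTATTTATtgtagtttatt
Eef1e1, second site, chr13:38645709-38645737, minus strand: tgttctcaaaaTATTTATgtgagctagta
Eef2, chr10:81182202-81182230, plus strand: gctaccaattcTATTTATttcggaattac
Eif4a1, chr11:69666977-69667005, minus strand: gttttgtatagTATTTATtgattcaggaa
Eif4g2, chr7:111069038-111069066, minus strand: ctcttccatggTATTTATgaggaaggagc
Eif4ebp2, chr10:61429658-61429686, minus strand: cccacggcagcTATTTATtaatgtgcgaa

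The motif, searched on the transcript strand in 1 annotated 3′UTR per gene, was found in 14 of the 52 members that have one (26.9%, 17 sites), beside 27.4% of 11572 listed genes. The other members with it were Eif2b3, Eif2s1, Eif3j1, Eif4a2, Eif4ebp1, Eif4g3 and Eif5. Members with the motif had longer 3′UTRs, with a median of 2029 bases against 482 in those without it. In TTP against GFP the median difference was 0.07 log2 for the 14 with the motif and 0.09 for the 38 without it. In TTP-AA against GFP the medians were -0.09 and 0.02, and in TTP-AA against TTP they were -0.08 and -0.09. Over all listed genes the medians with and without the motif were -0.03 and 0.01 in TTP against GFP. They were -0.07 and 0.02 in TTP-AA against GFP, and -0.04 and 0.0025 in TTP-AA against TTP. Both members past the fold carry the motif, and they differed in opposite directions in TTP-AA. A match says only that these letters stand in the annotated 3′UTR.

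Eif5a2 (chr3:28781276-28798846, plus strand, GRCm38) codes for the second isoform of eIF5A, which carries the hypusine residue and is scarce in most tissues. Its scaled counts were 89.7, 92.9 and 101 in GFP, 142, 146 and 160 in TTP and 202, 208 and 228 in TTP-AA. The groups did not overlap, TTP standing between GFP and TTP-AA. The differences were 0.66 log2 in TTP against GFP (1.58-fold), 1.17 in TTP-AA against GFP (2.25-fold) and 0.51 in TTP-AA against TTP (1.43-fold), each above its range of 0.18 over the replicate numbers. The median gene of chromosome 3 lay 0.19 log2 lower in TTP than in GFP and 0.10 higher in TTP-AA than in TTP. With each chromosome centred on its own median, the Eif5a2 values became 0.85, 1.27 and 0.41, the last no longer past the fold. With least-squares scaling they were 0.70, 1.59 and 0.90, the first with overlapping libraries. The difference of TTP-AA from TTP also lost the threshold without TTP replicate 1 (0.48), TTP replicate 2 (0.496) or TTP-AA replicate 3 (0.46). These shifts come from the replicate-number term, which no longer cancels when a library is left out. For Eif5a2, the share of all listed genes with a difference as large was 3.06% in TTP against GFP, 0.818% in TTP-AA against GFP and 12.9% in TTP-AA against TTP.

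The main isoform gene, Eif5a, moved little. It lay at 33616, 39285 and 41862 in GFP, 36325, 42132 and 45303 in TTP and 32223, 37498 and 40109 in TTP-AA. All groups overlapped, and the differences were 0.11, -0.06 and -0.17 log2 in TTP against GFP, TTP-AA against GFP and TTP-AA against TTP. Per kilobase, Eif5a2 was the lowest member in the mean over groups and Eif5a the fourth highest.

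Eif3a (chr19:60761117-60790658, minus strand, GRCm38) codes for the largest subunit of eIF3, the scaffold that joins the small ribosomal subunit to the mRNA-bound factors. Its scaled counts were 19289, 16061 and 21907 in GFP, 25657, 21202 and 29182 in TTP and 13660, 11326 and 15507 in TTP-AA. TTP libraries were all above TTP-AA libraries, whereas GFP overlapped with TTP but not with TTP-AA. On the main scale, Eif3a was 0.41 log2 higher in TTP than in GFP, 0.50 lower in TTP-AA than in GFP (-0.50) and 0.91 lower in TTP-AA than in TTP (-0.91, a ratio of 0.533). The second of these values sat on the threshold and lost it with trimmed-mean scaling (-0.498) and without GFP replicate 1 (-0.49), GFP replicate 3 (-0.39) or TTP-AA replicate 2 (-0.38). The shifts without a library come from the replicate-number term, which then no longer cancels. With least-squares scaling the Eif3a values were -0.08 in TTP-AA against GFP and -0.52 in TTP-AA against TTP, neither past the fold. Chromosome 19 as a whole lay 0.18 log2 higher in TTP than in GFP by its median gene and 0.10 lower in TTP-AA than in TTP. Centred on the chromosome, Eif3a stood at 0.22, -0.60 and -0.81 log2, so that both differences of TTP-AA remained past the fold.

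**Figure D4:**
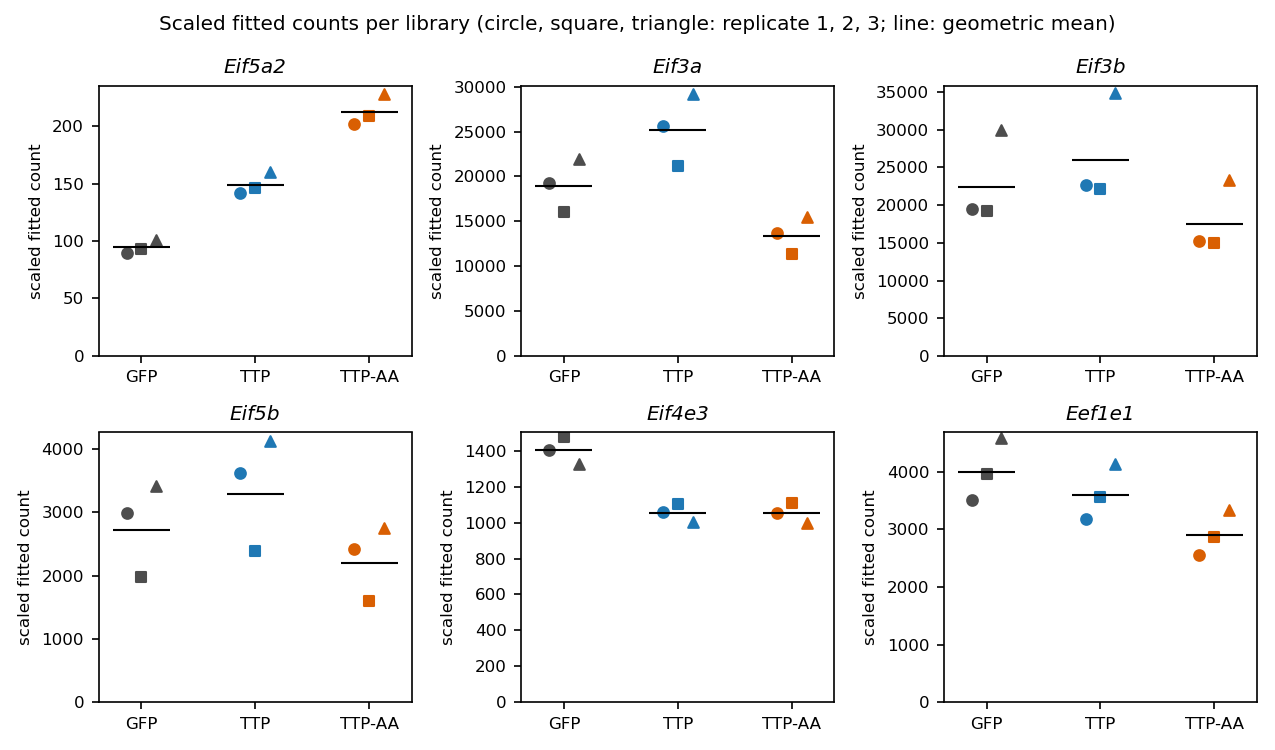
Scaled fitted counts of Eif5a2, Eif3a, Eif3b, Eif5b, Eif4e3 and Eef1e1 in each of the 9 libraries (y axes start at 0), with circles, squares and triangles for replicates 1, 2 and 3 and a line for the geometric mean of a group. The same replicate pattern recurs in every group because the values are fitted means, and only Eif5a2 separates all 3 groups.

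The other subunits of eIF3 stayed closer to one another. Across the 13 subunits, TTP exceeded GFP in 11 and TTP-AA lay under TTP in 10, with medians of 0.14 and -0.13 log2. In TTP-AA against GFP, 7 subunits were higher and 6 lower, with a median of 0.01. Of all 53 members, TTP exceeded GFP in 38 and TTP-AA lay under TTP in 34. Without Eif3a, the median of the other 12 subunits in TTP-AA against TTP was -0.11, and Eif3a lay 0.80 log2 below it. Eif3b, which with Eif3a anchors the complex, came nearest to it. Its scaled counts were 19515, 19267 and 29979 in GFP, 22620, 22165 and 34801 in TTP and 15195, 14939 and 23333 in TTP-AA. The difference of TTP-AA from TTP was -0.57, but the third TTP-AA library lay above the lower pair of TTP libraries, so the groups overlapped. The remaining 11 subunits lay between -0.30 (Eif3j1) and 0.16 (Eif3f) in this comparison, and Eif3k, at 0.01, was nearly level. Per kilobase of the transcripts chosen, the subunits were also unequal, from 361 for Eif3j1 (5413 bases) to 11812 for Eif3i (1123 bases).

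Among the factors that scan for the start codon and join the ribosomal subunits, TTP-AA exceeded TTP in 5 of 7, never past the fold. Eif5b, the GTPase that joins the large subunit, showed the largest difference of the group, in the other direction. It lay at 2994, 1982 and 3406 in GFP, 3625, 2382 and 4130 in TTP and 2424, 1598 and 2756 in TTP-AA. The difference of TTP-AA from TTP was -0.58, while the range over replicate numbers was 0.79, and the libraries overlapped. Eif1ad, which holds an eIF1A-like domain, was 0.35 log2 higher in TTP than in GFP and 0.33 lower in TTP-AA than in TTP. Its libraries lay at 7124, 7677 and 7587 in GFP, 9067, 9697 and 9671 in TTP and 7233, 7760 and 7699 in TTP-AA. TTP stood apart from both other groups. Eif1ad also lies on chromosome 19, and its centred values were 0.16 and -0.22. Eif1a, a core scanning factor, lay 0.25 log2 higher in TTP-AA than in GFP, at 12695, 12487 and 15278 against 10629, 10499 and 12797, and the groups overlapped. Eif1, Eif1b, Eif5 (the GTPase activator of eIF2) and Eif6 (which keeps the subunits apart) lay between -0.17 and 0.20 log2 in all comparisons.

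The eIF2 group, which delivers the initiator tRNA, held no member past the fold. Eif2s1 codes for the alpha subunit, whose phosphorylation slows initiation under stress. It lay at 9217, 9722 and 11242 in GFP, 10268, 10749 and 12542 in TTP and 9970, 10471 and 12154 in TTP-AA, with differences of 0.15, 0.11 and -0.04 log2. These groups overlapped throughout. Eif2a, an alternative tRNA-binding factor, was 0.24 log2 lower in TTP than in GFP, at 3383, 3333 and 3236 against 3978, 3948 and 3799, and did not overlap. Centred on chromosome 3, that difference was -0.04. Eif2s2 and Eif2d lay between -0.27 and 0.07. The 5 subunits of eIF2B, which recycles eIF2 to its GTP form, were all higher in TTP than in GFP, by 0.07 to 0.22 log2, but each by less than its range over replicate numbers. In TTP-AA against TTP, 2 of the 5 were higher and 3 lower.

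Cap-binding and unwinding factors were mostly level. Eif4e, the cap-binding subunit, lay at 9158, 9422 and 10288 in GFP, 8508, 8687 and 9572 in TTP and 9505, 9737 and 10673 in TTP-AA. Its differences were -0.11, 0.05 and 0.16 log2 and all groups overlapped. Eif4g1, the scaffold of eIF4F, lay at 19214, 15676 and 14396 in GFP, 21740, 17604 and 16313 in TTP and 20552, 16697 and 15392 in TTP-AA, again overlapping. Eif4a1, the helicase, lay at 34101, 38582 and 44835 in GFP, 37409, 42007 and 49257 in TTP and 28868, 32524 and 37937 in TTP-AA. TTP-AA was 0.37 log2 lower than TTP here, a difference just under its replicate range of 0.40.

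Eif4e3, a member of the eIF4E family, showed another pattern. It lay at 1403, 1477 and 1328 in GFP, 1058, 1106 and 1003 in TTP and 1056, 1106 and 999 in TTP-AA. Both TTP forms stood 0.41 log2 below GFP without overlap and level with each other (0.00), so the difference was under the threshold of 0.5 but past that of 0.3. Eif4e2, a cap-binding repressor, was 0.24 log2 higher in TTP-AA than in either other group without overlap, and Eif4b, a helper of the helicase, was 0.14 lower. Eif4g2, an eIF4G relative that does not bind eIF4E, lay 0.28 log2 higher in TTP-AA than in GFP and 0.33 higher than in TTP, at 33211, 16150 and 29936 against 27368, 13365 and 24680 and against 26500, 12844 and 23933. Its libraries overlapped. Eif4a2, Eif4g3 and Eif4h lay between -0.13 and 0.07.

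Of the regulators that bind eIF4E, Eif4ebp1, a repressor controlled by mTOR, lay at 1113, 1454 and 1293 in GFP, 1248, 1618 and 1452 in TTP and 1308, 1701 and 1518 in TTP-AA. The groups overlapped, with differences of 0.16, 0.23 and 0.07 log2. Eif4ebp2, its relative, lay at 653, 280 and 481 in GFP, 574, 245 and 424 in TTP and 772, 330 and 569 in TTP-AA. Its difference of 0.43 log2 in TTP-AA against TTP was smaller than its range of 1.22 over the replicate numbers, and the libraries overlapped. Eif4enif1, the nuclear carrier of eIF4E, differed by -0.26 log2 between TTP-AA and TTP, with overlap. Eif4a3, the helicase of the exon junction complex, differed by -0.24 without overlap.

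The most abundant elongation factor genes, Eef1a1, Eef2 and Eef1b2, differed by at most 0.19 log2 in size between groups. Eef1a1 lay at 247580, 318571 and 257480 in GFP, 239302, 305604 and 249240 in TTP and 224523, 287684 and 233396 in TTP-AA, with differences of -0.05, -0.14 and -0.09 log2. Eef1b2, of the nucleotide exchange complex of eEF1A, lay at 50236, 70692 and 59354 in GFP, 54086, 75537 and 63997 in TTP and 49130, 68844 and 58021 in TTP-AA. Eef2 lay at 131363, 157317 and 120510 in GFP, 115380, 137138 and 106004 in TTP and 125146, 149241 and 114755 in TTP-AA, with differences of -0.19, -0.07 and 0.12. All 3 genes overlapped in every comparison. The 5 members of the eEF1 group were all lower in TTP-AA than in TTP, by 0.09 to 0.31 log2 (-0.09 to -0.31), and none was past the fold. Their range over replicate numbers exceeded that difference in each case, as in Eef1g, where -0.11 stood against 0.12.

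Eef1e1, the member of the eEF1 group that sits in the multi-tRNA synthetase complex, was lower in TTP-AA. It lay at 3513, 3970 and 4581 in GFP, 3173, 3559 and 4144 in TTP and 2555, 2875 and 3330 in TTP-AA. TTP-AA did not overlap with GFP (-0.46) but did overlap with TTP (-0.31). Eef1g, a subunit of the exchange complex, was 0.27 log2 higher in TTP than in GFP without overlap, which became 0.09 when chromosome 19 was centred. Eef1d was 0.27 higher in TTP than in GFP with overlap. Eef2k, the kinase that inhibits eEF2, lay between 507 and 558 in all 9 libraries. Its libraries were apart between TTP and both other groups at differences of only 0.11 and -0.09 log2, since its range over replicate numbers was 0.02.

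Spread over the replicate numbers, which the deposited values share between groups, was as large as most differences between groups. The median range was 0.36 log2 over the members and 0.32 over all listed genes. It was widest in Eif4ebp2 (1.22), Eif1 (1.18) and Eif4g2 (1.04), all lowest in replicate 2 of every group. Of the 53 members, 31 were lowest in replicate 1 and 26 were highest in replicate 3. Members with libraries apart, at any size of difference, numbered 6 (11.3%, beside 19.5% of listed genes), 9 (17.0%, beside 24.9%) and 9 (17.0%, beside 30.9%) in TTP against GFP, TTP-AA against GFP and TTP-AA against TTP.

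**Figure D5:**
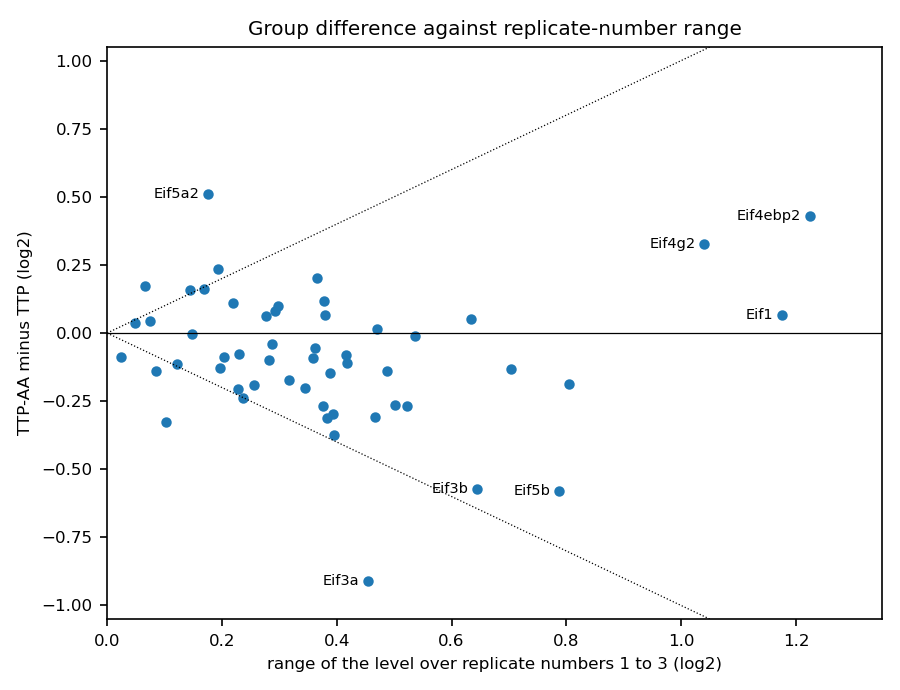
Difference of TTP-AA from TTP (log2) against the range of the level over replicate numbers 1 to 3 (log2) for the 53 members, 1 point per gene. Beyond the dotted lines the difference exceeds the range and the libraries do not overlap, as for Eif5a2 (0.51) and Eif3a (-0.91), while Eif4ebp2, Eif4g2 and Eif1 lie far to the right.

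Several members share sequence with copies elsewhere in the genome, and the alignment let a read keep up to 2 placements. By 50-base words of the transcript, the read length used, 18 members shared none with transcripts of other genes and 11 shared at least 20%. The most affected were the pseudogene Eif4a-ps4 (95.7%), Eif4a1 (65.3%), Eef1g (64.3%), Eef1a1 (60.6%) and Eif3j1 (54.8%), whose levels are uncertain for that reason. Eif4a-ps4 lay at 43.8 to 87.2, against 28868 to 49257 for its parent Eif4a1. Eif5a2, Eif3a, Eif3b and Eef1e1 shared no word and overlapped no exon of another gene. Exons of 21 members overlap those of another gene, in 11 of them on the same strand, as Eif4e3 with Gm20696, and in 13 on the other strand, as Eif5b with Rev1, Eif1ad with Banf1 and Eif2a with Serp1. Whether counting used the strand was not given in the sources used here, so reads of such pairs cannot be told apart. Across the 52 protein-coding members, differences showed no relation to transcript length (Spearman's rho of 0.02, 0.01 and 0.04, across genes that share libraries).

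Another 41 translation genes comprised the eIF2 alpha kinases, sex-chromosome initiation factors, poly(A)-binding proteins, termination and recycling factors and translation regulators. Their numbers past the fold were near those that the shares of all listed genes would give. In TTP against GFP, 0 were higher and 2 lower, beside 1.32% and 3.03% of listed genes. The 2 were Eif2s3y (-1.22), the Y-linked gamma subunit of eIF2, and Gspt2 (-1.57), a release factor gene. In TTP-AA against GFP the same 2 genes were higher, by 1.90 and 0.67 log2, and 0 genes were lower (beside 4.09% and 2.58%). In TTP-AA against TTP 3 were higher and 1 lower, beside 7.03% and 3.98%. Eif2s3y and Gspt2 were higher by 3.12 and 2.25, and Mknk2, a kinase of eIF4E, was higher by 0.80. Pdcd4, an inhibitor of eIF4A, was lower (-0.65), at a mean of 1046 in TTP-AA against 1641 in TTP and 1393 in GFP. The X-linked Eif2s3x, which codes for the same eIF2 subunit as Eif2s3y, was level at means of 9002, 9304 and 9520 in GFP, TTP and TTP-AA. The 4 eIF2 alpha kinases lay between -0.23 and 0.17 log2 in all comparisons.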

How the data were processed

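RNA-seq libraries of 3 groups with 3 libraries each were used. According to the submitters' notes and methods, the authors trimmed 50-base single-end reads, aligned them with TopHat to GRCm38 keeping up to 2 placements, counted reads per gene of Ensembl 70 with HTSeq, and fitted DESeq2 1.6.3 with library date and condition as terms. The deposited library values are the signal that the authors' model fitted per gene and library, with library size left in. Whether fitted effects were shrunk was not given in the sources used here. The gene list, names and the authors' mean count (at least 8.98) came from the comparison table of TTP-AA with TTP. Its 5 columns of fold changes, standard errors, statistics and p-values, and the other comparison tables, were not used.

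Members and lists were chosen with earlier results of these data known. Libraries were scaled by the median of ratios over 13205 genes, and group means of log2 values were compared (Python 3.11.15, numpy 2.4.6, pandas 2.3.3), with no test, because fitted means hold no scatter. On simulated fitted means for TTP against GFP over 13205 genes, 200 of 200 changed genes were recovered, with 0 false. Such means hold no scatter (largest error 0.00016 log2), so the run checked the arithmetic only. Recovery of differences from libraries with scatter was not tested. Depth could be read only from the sums of fitted values, so no counting interval was given. Transcripts, positions and 3′UTRs came from GENCODE M21 (GRCm38), a later annotation, which matched 99.5% of listed genes. Values per library were given for members past the fold, the 4 highest per kilobase and core factors. The 3 largest differences each way were named per comparison. Values per library in the groups compared were also given for those members, which were picked from these same data. The labels do not say whether replicates were separate cultures. Alternatives were other scalings, thresholds of 0.3 and 1 log2, a pseudocount of 1, a minimum mean of 50, centring on each chromosome, leaving out each library and, added after the data were seen, members with little shared sequence or no exon overlap.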

Additional observations from a re-analysis of the deposited data

How the results depend on the processing

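No paired analysis was possible because no test was run on the fitted means and same-numbered libraries give the same difference by construction. The number of members past the fold in TTP against GFP (1 as reported) was 0 with least-squares scaling to the authors' mean, 3 at a threshold of 0.3 log2 and 0 at a threshold of 1. Leaving out 1 library gave 1 to 3, with 2 without GFP replicate 3 and 3 without TTP replicate 2. In TTP-AA against GFP (2) it was 1 with trimmed-mean scaling, 1 with least squares, 4 at a threshold of 0.3 and 1 at a threshold of 1. Leaving out 1 library gave 1 to 4, with 1 without GFP replicate 3 and 4 without TTP-AA replicate 3. In TTP-AA against TTP (2) it was 1 with least squares, 0 at a threshold of 1 and 1 with each chromosome centred. Leaving out 1 library gave 1 to 3, with 1 without TTP replicate 1. Least squares moved the median of the members to 0.44 in TTP-AA against GFP and to 0.30 in TTP-AA against TTP, because it moved the median of all listed genes by 0.42 and 0.38 log2. Its equations were nearly dependent (condition number 246), and directions in the text are relative to the median of all listed genes. Without 1 library the medians of the members ran from 0.03 to 0.15, from -0.05 to 0.05 and from -0.15 to -0.02. The library values come from a fit to all 9 libraries, so leaving out a library's values does not remove it from the fit. Shifts of a difference without 1 library come from the replicate-number term, which then no longer cancels. They are therefore no test of stability. The median in TTP-AA against GFP, 0.01, was -0.05 without GFP replicate 1, -0.01 without TTP-AA replicate 3 and -0.0053 with each chromosome centred. Its sign thus depended on the processing. The median in TTP-AA against TTP turned positive with least squares alone among the alternatives run, and that in TTP against GFP stayed positive in all of them. Eif5a2 in TTP-AA against GFP stayed past the fold in all 19 alternatives (1.12 to 1.22 without 1 library). Several of these, such as leaving out a TTP library, could not change that difference. The library values used here hide the scatter of the libraries, so the precision of a difference, above all for the low Eif5a2, cannot be judged from them. The authors' standard errors were not used.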
